A study of Mus musculus with 36 samples.

Results

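The 6 Ctrl libraries of the ZCCHC8 degron clone Z12H, out of 36 SLAM-seq libraries in the series, were compared with the 12 Ctrl libraries of the METTL3 degron clone 12D (6 libraries) and the YTHDC1 degron clone Y12H (6 libraries). They were chosen by line and arm in the sample labels. The question was whether the degron tag on ZCCHC8, without the drug that triggers degradation, already leaves a trace like a weak depletion, and which other genes differ between the clones.

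All 18 libraries came from mouse embryonic stem cells (mES cells) of a Cast x 129S hybrid background with a TetOn promoter in place of the endogenous Xist promoter on the 129S allele and a Bgl array in Xist. In each clone FKBP12 F36V was fused to the C terminus of METTL3, YTHDC1 or ZCCHC8. This tag recruits the protein to degradation once the ligand dTAG-13 is added, and no Ctrl culture received it. Every culture received doxycycline at 1 µg/mL for 24 h, with 4-thiouridine (4sU) at 500 µM during the last 4 h. A chase of 0, 90 or 180 min with 50 mM uridine followed, with 2 replicates per clone and time. Per the paper's methods the chase medium also held doxycycline at 1 µg/mL, so that Xist induction went on during the chase. The dTAG arm of the ZCCHC8 line (6 libraries) is given beside the Ctrl values where depletion is the yardstick. Each tagged protein is represented by 1 clone and there was no untagged parent among the libraries, so that an effect of the tag and a difference between clones cannot be told apart. Feeder fibroblasts had been removed by preplating.

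ZCCHC8 is the scaffold of the nuclear exosome targeting (NEXT) complex, in which it joins the RNA-binding protein RBM7 and the helicase MTR4, the product of Skiv2l2. NEXT delivers nonpolyadenylated nuclear RNA, such as promoter upstream transcripts, enhancer RNA and many unspliced noncoding transcripts, to the RNA exosome. These RNAs are known to build up when NEXT is lost. In these libraries their level without dTAG-13 can be read against their rise with it.

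The end of the Zcchc8 coding sequence is shown because the tag was joined to it. It is on chromosome 5, minus strand, with the stop codon at chr5:123700344-123700346 (GRCm38), and closes a coding sequence of 2130 bases. The reference, not the edited allele, is printed with its last 90 coding bases in lower case and the stop codon in capitals.
Zcchc8 end of coding sequence: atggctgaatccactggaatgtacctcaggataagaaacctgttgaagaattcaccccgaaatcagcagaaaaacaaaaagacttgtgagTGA
The gene itself spans 123698294 to 123721100, and Clip1 is the next gene downstream on the same strand (123577795 to 123684618), with 13676 bases between the 3′ end of Zcchc8 and the 5′ end of Clip1.

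Levels are in CPM, gene counts corrected for library size with TMM factors. Depth was 5589652 to 8515417 reads in the ZCCHC8 Ctrl libraries, 9547507 to 17982299 in METTL3 and 11601679 to 16129632 in YTHDC1. Replicates of the same time differed more in the METTL3 and YTHDC1 clones than in the ZCCHC8 clone, at 20.3 to 77.9 against 2.64 to 4.50 in chi-square per degree of freedom. On the first principal component (45.8% of the variance) replicate 1 of METTL3 and YTHDC1 lay apart, at -49.2 to -7.1, from replicate 2 of the same clones at -4.3 to 19.1 and from ZCCHC8 at 12.7 to 30.3. The labels give no batch for this, and results are therefore given for each replicate as well. Per the study's methods the wells of a replicate came from 1 batch of cells. The 3 chase libraries of a replicate thus share that batch, and p-values over 18 libraries rest on libraries that are not all independent cultures. With the 3 chase libraries of each clone and replicate summed, no gene was called (lowest edgeR adjusted p 0.403). Every gene called below, with its SE and interval, thus rests on fits that take the chase libraries as separate. Among single genes, summed values are given for Zcchc8 and Xist.

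The mRNA of the tagged gene was examined first. Zcchc8 (ENSMUSG00000029427) was at 28.2 CPM in the lowest, 33.7 in the median and 42.1 in the highest ZCCHC8 Ctrl library, against 54.0, 65.9 and 110 CPM in the 12 other Ctrl libraries. All 6 ZCCHC8 values were below all 12 others. The mean was 34.8 ± 5.16 CPM in the ZCCHC8 clone, 71.2 ± 18.3 in METTL3 and 73.1 ± 20.3 in YTHDC1 (SD, n = 6 each). The log2 difference of the ZCCHC8 clone from the mean of the other clones was -1.04 (SE 0.09, edgeR quasi-likelihood test, Benjamini-Hochberg adjusted p 1.95e-05), that is 48.8% of their level with an approximate 95% interval of 42.9% to 55.5%. It was -1.02 against METTL3 alone (adjusted p 3.26e-05), -1.05 against YTHDC1 alone (adjusted p 6.89e-05), -0.95 in replicate 1 and -1.11 in replicate 2. With the 3 chase libraries of each clone and replicate summed it was -1.05, and then no gene passed the threshold (edgeR adjusted p 0.403). With dTAG-13 the level in the same clone was similar, at 36.1 ± 3.69 CPM (SD, n = 6).

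The other tagged genes did not show such a step in their own clones. Mettl3, which encodes the catalytic subunit of the m6A writer, was at 57.8 ± 3.73 CPM in the METTL3 clone, 66.6 ± 6.61 in YTHDC1 and 63.5 ± 8.62 in ZCCHC8 (SD, n = 6 each). The METTL3 clone differed from ZCCHC8 by -0.13 (SE 0.07, edgeR adjusted p 0.145) and from YTHDC1 by -0.19 (SE 0.07, adjusted p 0.141) on the log2 scale. Ythdc1, which encodes a nuclear m6A reader, was at 246 ± 57.1 CPM in its own clone, 0.24 above ZCCHC8 (SE 0.09, adjusted p 0.0723) and differed from METTL3 by -0.04 (SE 0.09, adjusted p 0.875).

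**Figure D1:**
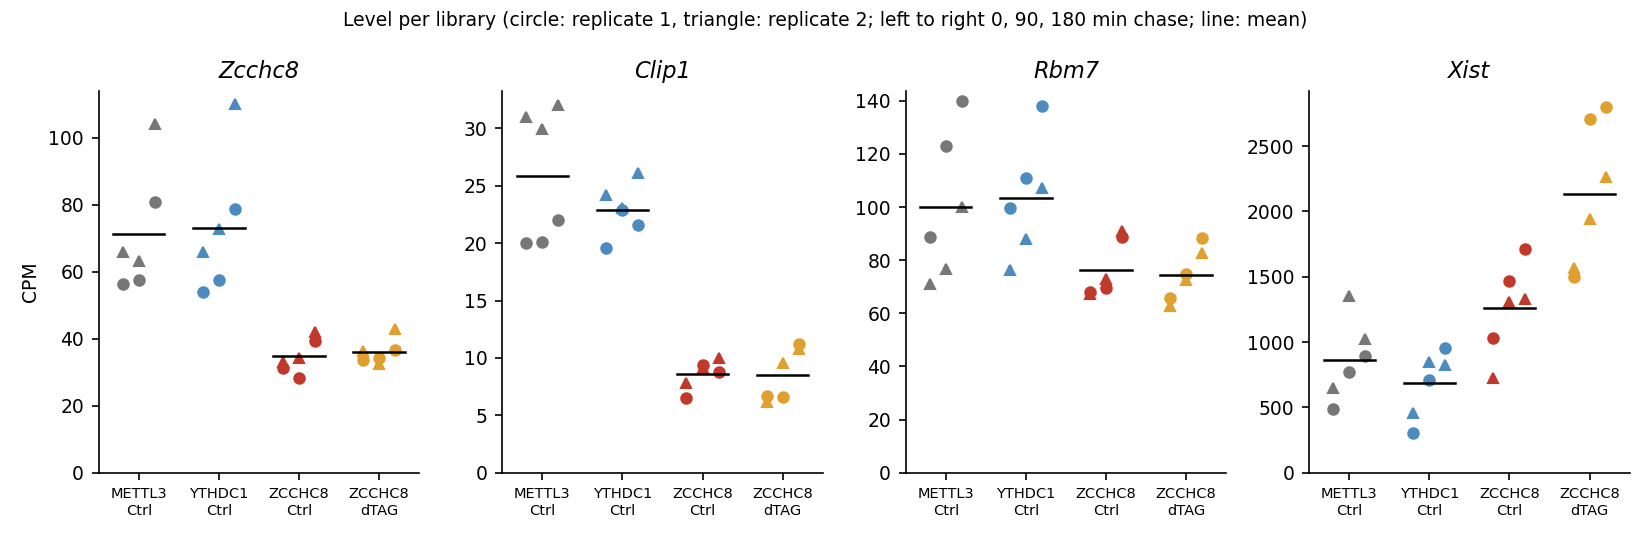
Level of Zcchc8, Clip1, Rbm7 and Xist in CPM (linear axes from 0) in the Ctrl libraries of the METTL3, YTHDC1 and ZCCHC8 clones and in the ZCCHC8 dTAG libraries. Each point is a library (circle: replicate 1, triangle: replicate 2, left to right 0, 90 and 180 min of chase) and each line the mean of 6. Zcchc8 and Clip1 of the ZCCHC8 clone lie below every library of the other clones in both arms. Rbm7 overlaps them in both arms and Xist in the Ctrl arm, while all 6 Xist values in dTAG (1500 to 2800 CPM) lie above them.

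Clip1 (ENSMUSG00000049550), which encodes the microtubule plus-end protein CLIP-170, was lower still. It was at 6.51, 8.95 and 10.0 CPM (lowest, median, highest) in the ZCCHC8 Ctrl libraries and at 19.6, 23.0 and 32 CPM in the others, without overlap. The log2 difference was -1.49 (SE 0.13, edgeR adjusted p 1.95e-05), which is 35.5% of the other clones' level (approximate 95% interval 29.8% to 42.3%), with -1.34 in replicate 1 and -1.60 in replicate 2. In the dTAG arm the median was 8.12 CPM. Clip1 was the largest drop among the genes ranked for naming below, and it is the neighbour of the edited gene.

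The step did not extend to the genes around the locus. Within 1000 kb on either side of the Zcchc8 stop codon 43 genes were tested. Of the 41 other than Zcchc8 and Clip1, 5 were called higher and 4 lower against the mean of the other clones (33.0% of all genes tested were called in this contrast, 13.8% higher and 19.2% lower), with a median log2 difference of 0.01 and a range of -0.44 to 0.94. Rsrc2, the nearest tested gene upstream, differed by -0.24 (SE 0.06, edgeR adjusted p 0.00935) and passed against METTL3 but not against YTHDC1. Vps33a, the nearest tested gene beyond Clip1, differed by -0.08 (SE 0.05, adjusted p 0.208). Of the 41, 3 differed from both other clones (10.0% of all genes did), namely Kntc1 (-0.31), Mlxip (0.55) and Rnf34 (-0.44).

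**Figure D2:**
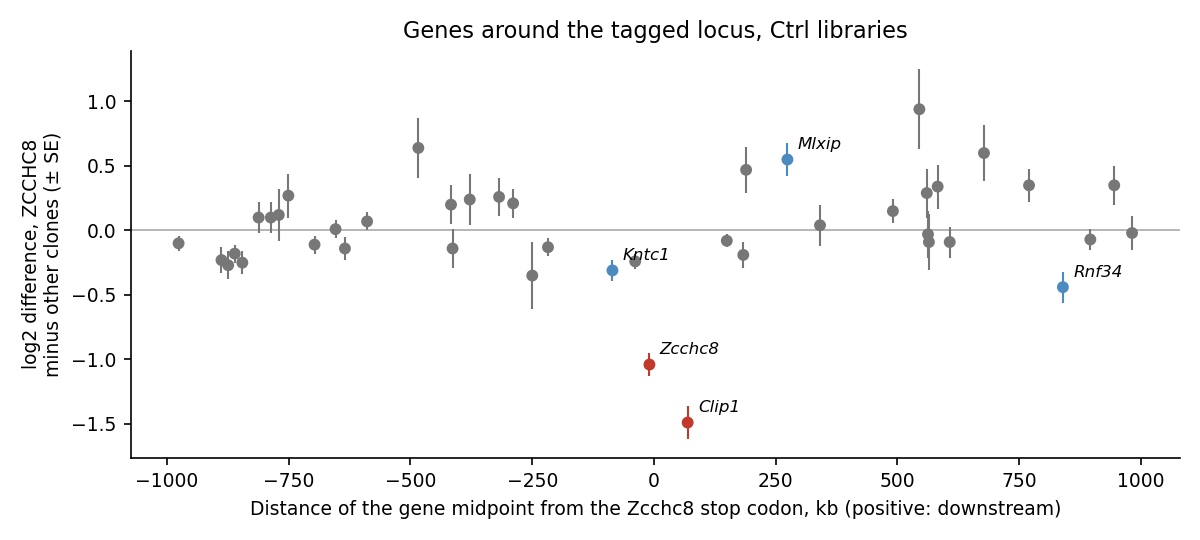
Log2 difference of the ZCCHC8 clone from the mean of the other clones (± SE) for the 43 tested genes within 1000 kb of the Zcchc8 stop codon, by the distance of the gene midpoint from it in kb (positive is downstream). Red marks Zcchc8 (-1.04) and Clip1 (-1.49), blue the 3 other genes that differed from both clones, and grey the rest, which scatter around a median of 0.01.

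The share of new RNA could be read for both genes from the new-to-total ratio, which comes in 1 table per line and replicate. At 0 min of chase the ratio of Clip1 was 0.699 and 0.737 in the ZCCHC8 Ctrl replicates, against 0.331 to 0.504 in the 4 other Ctrl libraries. The ranges did not overlap, while the median ratio of expressed genes was 0.492 and 0.534 in the ZCCHC8 libraries and 0.534 to 0.570 in the others. Zcchc8 went the other way, with 0.637 and 0.709 against 0.759 to 0.858. At 90 min the Clip1 ratio was 0.808 and 0.635 against 0.497 to 0.571, again without overlap, while that of Zcchc8 was 0.778 and 0.670 against 0.694 to 0.799, with overlap. The library medians at 90 min were 0.61 and 0.622 in ZCCHC8 and 0.545 to 0.645 in the others. Within its library Clip1 was then at percentile 84.6 and 51.8 against 41.3 to 46.6, and Zcchc8 at 77.0 and 57.6 against 85.0 to 89.2. At 180 min the ranges overlapped for both genes, at 0.558 and 0.382 against 0.398 to 0.547 for Clip1 and at 0.589 and 0.440 against 0.379 to 0.478 for Zcchc8. The percentiles at 180 min were 46.1 and 23.6 against 49.2 to 82.1 for Clip1, the reverse of 90 min, and 55.9 and 37.8 against 39.2 to 60.4 for Zcchc8. The Clip1 values of the ZCCHC8 clone rest on 34 to 78 reads per library. With 2 libraries against 4 no exact permutation test can go below 0.0667, and none was run.

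Of the partners of ZCCHC8, Rbm7 was lower and Skiv2l2 was not called. Rbm7 was at 67.4, 71.3 and 91.0 CPM (lowest, median, highest) in the ZCCHC8 clone and at 71.1, 99.7 and 140 CPM in the others, and the groups overlapped. The log2 difference was -0.41 (SE 0.11, edgeR adjusted p 0.0114) and passed against each clone. It was -0.62 in replicate 1 and -0.15 in replicate 2, and -0.14 (adjusted p 0.181) once GC content was taken into the offsets, as described below. Skiv2l2 was at 144 ± 34.9 CPM against 159 ± 22.1 in METTL3 and 151 ± 24.4 in YTHDC1 (SD, n = 6 each), a log2 difference of -0.12 (adjusted p 0.222). Of the 14 genes of the RNA exosome itself, 4 were called higher and 3 lower (13.8% and 19.2% of all genes were) with a median of -0.16. With the GC content in the offsets 0 were called, where 6.55% of all genes were called higher and 7.00% lower. Of the 5 genes of PAXT, the polyadenylated counterpart of NEXT, 1 was higher and 0 lower.

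To ask whether the untreated clone already looked like weak depletion, the genes that rise with dTAG-13 were followed at baseline. Responsive genes were chosen in the ZCCHC8 line in 1 replicate (3 dTAG against 3 Ctrl libraries, edgeR adjusted p under 0.05 and a log2 fold change of at least 1), and their baseline was measured in the 9 Ctrl libraries of the other replicate, so that no library served both purposes. Of 509 genes chosen in replicate 1, 412 were tested at baseline in replicate 2, of which 89 were called higher in the ZCCHC8 clone and 28 lower (21.6% and 6.8%, where 18.1% of all genes were called higher and 20.0% lower). Their median log2 difference was 0.10, against -0.002 over all genes tested and against a median response to dTAG-13 of 1.38 in the same replicate. Of 504 genes chosen in replicate 2, 394 were tested in replicate 1, of which 97 were called higher and 39 lower (24.6% and 9.9%, against 24.3% and 24.6% of all genes), with a median of 0.23 against -0.009 and a response of 1.40. In this fit the share called higher was 21.6% against 18.1% and 24.6% against 24.3% of all genes, and the share called lower was under that of all genes both times. With GC-bin offsets, described below, 78 were higher and 24 lower of 412 (18.9% and 5.8%, against 12.2% and 12.7% of all genes, median 0.08), and 92 higher and 37 lower of 394 (23.4% and 9.4%, against 19.7% and 19.1%, median 0.18). Genes too low for the baseline filter are not in these counts, and a gene can pass that filter through the clone in which it is high.

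The responsive genes were also counted by biotype, beside the same shares of all genes (18.1% higher and 20.0% lower in replicate 2, 24.3% and 24.6% in replicate 1). Among lincRNA genes chosen in replicate 1, 9 of 87 were called higher and 5 lower with a median of -0.04, where their response was 1.86. Among those chosen in replicate 2, 9 of 77 were higher and 9 lower with a median of -0.00, where their response was 1.74. Protein-coding genes gave 80 of 315 higher and 21 lower (median 0.18), and 87 of 304 higher and 24 lower (median 0.32). Genes of other biotypes gave 0 higher and 2 lower of 10 (median -0.18), and 1 higher and 6 lower of 13 (median -0.22). The difference between the biotypes was not tested. Over all 302 lincRNA genes tested in the 18 libraries, whether responsive or not, 25 were higher and 40 lower (13.8% and 19.2% of all genes were). Their median was -0.07 against -0.02 for all genes. With the GC content in the offsets 28 were higher and 12 lower (median 0.02), where 6.55% and 7.00% of all genes were.

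The responsive genes were next split by the size of their response. Of all genes, 18.1% were called higher and 20.0% lower in replicate 2, and 24.3% and 24.6% in replicate 1. Of those chosen in replicate 1 and measured in replicate 2, 64 were higher and 26 lower of 321 at a response of 1 to 2 on the log2 scale (median baseline 0.089), 24 and 2 of 75 at 2 to 3 (0.169) and 1 and 0 of 16 at 3 or more (0.087). Of those chosen in replicate 2 and measured in replicate 1, 83 were higher and 29 lower of 314 (0.31), 13 and 6 of 62 (0.106) and 1 and 4 of 18 (-0.031). No common order with the size of the response was seen in both.

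The next counts use the ZCCHC8 Ctrl libraries both for the response and for the baseline and are given as a description. In both replicates 366 genes were chosen, and in 318 of them all 6 dTAG libraries were above all 6 ZCCHC8 Ctrl libraries while the ZCCHC8 Ctrl libraries overlapped the other Ctrl libraries. In 9 of the 366 (2.5%) the ZCCHC8 Ctrl libraries lay above all 12 others, and in 4 (1.1%) below. Of the 40 genes with a response of at least 3 on the log2 scale (median 3.5), 17 were tested at baseline. By edgeR 0 were called higher and 1 lower (13.8% and 19.2% of all genes were), with a median of -0.16.

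Hist2h2be, a histone H2B gene, was at 0.39, 0.939 and 1.56 CPM (lowest, median, highest) in ZCCHC8 Ctrl, 0.356, 1.43 and 2.08 in the other Ctrl and 13.7, 19.2 and 22.1 in ZCCHC8 dTAG libraries. The lincRNA Gm26734 was at 0.191, 0.804 and 1.08 CPM, 0.377, 0.903 and 1.68, and 9.63, 10.8 and 12.4. For neither was the baseline difference called (log2 difference -0.48, edgeR adjusted p 0.161, and -0.38, adjusted p 0.315). For both genes the ranges of the ZCCHC8 Ctrl and the other Ctrl libraries overlapped. The 8 genes named here were picked by their rise over these same ZCCHC8 Ctrl libraries. A low level in ZCCHC8 Ctrl and the gap to dTAG follow in part from that choice, and the values are given as a description. The lincRNA AC123694.3 was at 0 to 0.24 CPM in ZCCHC8 Ctrl, 0.0718 to 0.301 in other Ctrl and 2.64 to 4.0 in dTAG libraries. The remaining 5 of the 8 strongest responders, Gm11335, Gm28874, Gm26663, Gm39157 and Vmn1r4, had medians of 0.0664 to 0.263 CPM in ZCCHC8 Ctrl, 0.103 to 0.616 in other Ctrl and 2.13 to 5.1 in dTAG libraries, and were too low to be tested at baseline.

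**Figure D3:**
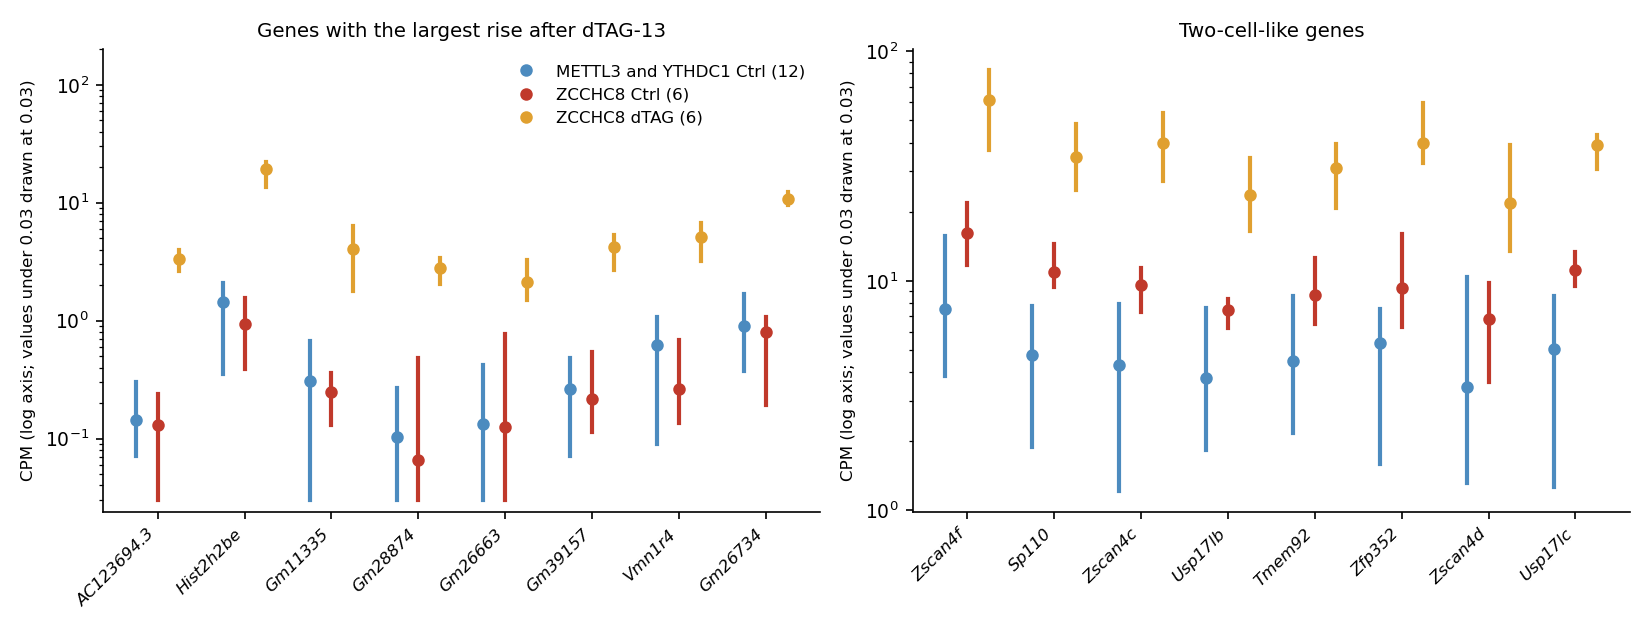
CPM on a log axis (values under 0.03 drawn at 0.03) of the 8 genes with the largest response to dTAG-13 and of the 8 genes of the 2-cell-like list with the smallest adjusted p at baseline, as the range (bar) and median (dot) of 12 METTL3 and YTHDC1 Ctrl, 6 ZCCHC8 Ctrl and 6 ZCCHC8 dTAG libraries. In the left panel both Ctrl sets overlap, and dTAG lies apart, which the choice of these genes by their response favours. In the right panel the ZCCHC8 Ctrl medians lie between those of the other Ctrl and the dTAG libraries. The choice of these genes by their adjusted p at baseline favours a gap between the Ctrl sets. Tcstv3, Tdpoz4 and Gm2022 of the same list, not drawn, were not called.

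One group of responsive genes did stand higher at baseline. The 2-cell-like genes, among them the Zscan4 and Usp17l families and Zfp352, are expressed in the 2-cell embryo and, in mES cell cultures, in a small and fluctuating share of cells. Of the 23 genes listed, 20 were in the tables and 16 were tested. Of these, 13 were called higher in the ZCCHC8 clone and 0 lower (13.8% and 19.2% of all genes were), with a median log2 difference of 1.00. Some members are low, such as Usp17la with medians of 1.87 CPM in ZCCHC8 Ctrl and 0.481 in the others. A gene can pass the filter on low counts through the clone in which it is high, which favours a call in that direction. Summed over the list, the level was 84.1, 100 and 127 CPM (lowest, median, highest) in ZCCHC8 Ctrl, 52.6, 73.2 and 76.0 in METTL3, 21.7, 37.1 and 47.6 in YTHDC1 and 268, 364 and 491 in ZCCHC8 dTAG libraries. The 4 groups did not overlap. The METTL3 and YTHDC1 clones differed as well, with 8 of the 16 called between them (2.48% of all genes were) and a median of 1.00. ZCCHC8 was 0.59 above METTL3 and 1.54 above YTHDC1, and 5 of the 16 differed from both clones (10.0% of all genes did). The median was 1.21 in replicate 1, 0.94 in replicate 2 and 1.18 with GC content in the offsets. In bulk RNA a larger share of cells in this state and more RNA per cell cannot be told apart.

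Sp110, a nuclear body protein gene, was at 9.37, 10.9 and 14.5 CPM in ZCCHC8 Ctrl and 1.88, 4.75 and 7.75 in the other Ctrl libraries, without overlap (log2 difference 1.36, SE 0.18, edgeR adjusted p 0.000568), and its median in dTAG libraries was 34.5. A gene on the other strand overlaps it. Zscan4c, a DNA-binding factor of the 2-cell-like state, was at 7.28, 9.61 and 11.4 CPM against 1.22, 4.32 and 7.93, with an overlap of the groups (1.13, SE 0.17, adjusted p 0.000791), and reached 39.9 in dTAG. Tcstv3 (0.21, adjusted p 0.498), Tdpoz4 (0.03, adjusted p 0.944) and Gm2022 (0.62, adjusted p 0.125) of the same list were not called. Members of the Zscan4 and Usp17l families are near-identical copies, among which reads may have been split. Without the list, the responsive genes gave 75 higher and 28 lower of 396 (median 0.08) and 86 higher and 39 lower of 380 (median 0.22), while its members alone gave 14 of 16 and 11 of 14 higher and 0 lower. Of all genes 18.1% were higher and 20.0% lower in replicate 2, and 24.3% and 24.6% in replicate 1.

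Across the transcriptome each pair of clones was compared. Of 14005 genes tested, 4623 were called between the ZCCHC8 clone and the mean of the other clones, 1937 higher and 2686 lower. Between ZCCHC8 and METTL3 4367 genes were called (31.2%), between ZCCHC8 and YTHDC1 1938 (13.8%), and between METTL3 and YTHDC1 348 (2.48%). Same-numbered libraries of METTL3 and YTHDC1 deviated together, and with the replicate number as a block the counts were 6679, 5247 and 865. A gene was counted as set apart in a clone where it differed from both other clones with the same sign. This held for 1407 genes (10.0%) in ZCCHC8, 446 higher (3.18%) and 961 lower (6.86%), for 211 (1.51%) in METTL3 and for 71 (0.507%) in YTHDC1. The differences were mostly small, with a median size of 0.44 for the smaller of the pairwise log2 differences and 38 genes at 1 or more. In 213 genes (1.52%) the 6 ZCCHC8 libraries did not overlap the 12 others, 159 of them set apart. No gene was called for an interaction of clone and chase time (edgeR, 0 genes at adjusted p under 0.05, 142 at p under 0.05), so that the differences are given over all chase times.

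These counts depended on the libraries taken as replicates. With the 3 chase libraries of each clone and replicate summed, leaving 2 libraries per clone, 0 genes were called (edgeR, 1856 of 15758 at p under 0.05, lowest adjusted p 0.403). Within replicate 1, 4574 genes were set apart in ZCCHC8, 88 in METTL3 and 64 in YTHDC1, and 146 were called between METTL3 and YTHDC1. Within replicate 2 these were 3098, 1265, 472 and 2156. Of the 1407 genes, 1403 had the same sign in both replicates, 774 (282 higher, 492 lower) were set apart in each replicate on its own, and 1039 were also set apart without replicate 1 of METTL3 and YTHDC1. Leaving out a single library moved the count by over 1.5 times for 0, 90 and 180 min of YTHDC1 replicate 1 (885, 413 and 448), 90 and 180 min of ZCCHC8 replicate 1 (560 and 509), and 0, 90 and 180 min of ZCCHC8 replicate 2 (762, 624 and 535). The number called against the mean of the other clones moved as far without 90 or 180 min of ZCCHC8 replicate 1 (2955 and 2900) or of ZCCHC8 replicate 2 (2908 and 2795).

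The difference between clones followed the GC content of the transcript. Genes in the low GC class (under 45%, 3498 genes, the 25% of genes with the least GC) had a median log2 difference of -0.27, with 25 set apart higher and 645 lower. Genes in the high GC class (over 54.7%, 3498 genes) had a median of 0.31, with 246 set apart higher and 4 lower. The trend ran without a turn from -0.30 in the tenth of genes with a median GC of 39.6% to 0.42 in the tenth at 59.7%. It was present in replicate 1 (-0.37 to 0.73) and in replicate 2 (-0.21 to 0.21).

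The same could be read library by library. The GC gap of a library was taken as the median log2 deviation from the mean of all libraries of the high GC class minus that of the low GC class. It was 0.309, 0.355 and 0.496 (lowest, median, highest) in the ZCCHC8 Ctrl libraries and -0.882, -0.07 and 0.237 in the other Ctrl libraries, without overlap. In the ZCCHC8 dTAG libraries it was 0.208, 0.42 and 0.53, which passed the Ctrl range of the clone at both ends and at its low end overlapped the other Ctrl libraries. Among the others it was lowest in METTL3 replicate 1 (-0.882 to -0.218) and YTHDC1 replicate 1 (-0.511 to 0.176) and higher in METTL3 replicate 2 (-0.164 to 0.14) and YTHDC1 replicate 2 (0.025 to 0.237). GC gap, depth and clone changed together in these libraries, and cannot be told apart.

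**Figure D4:**
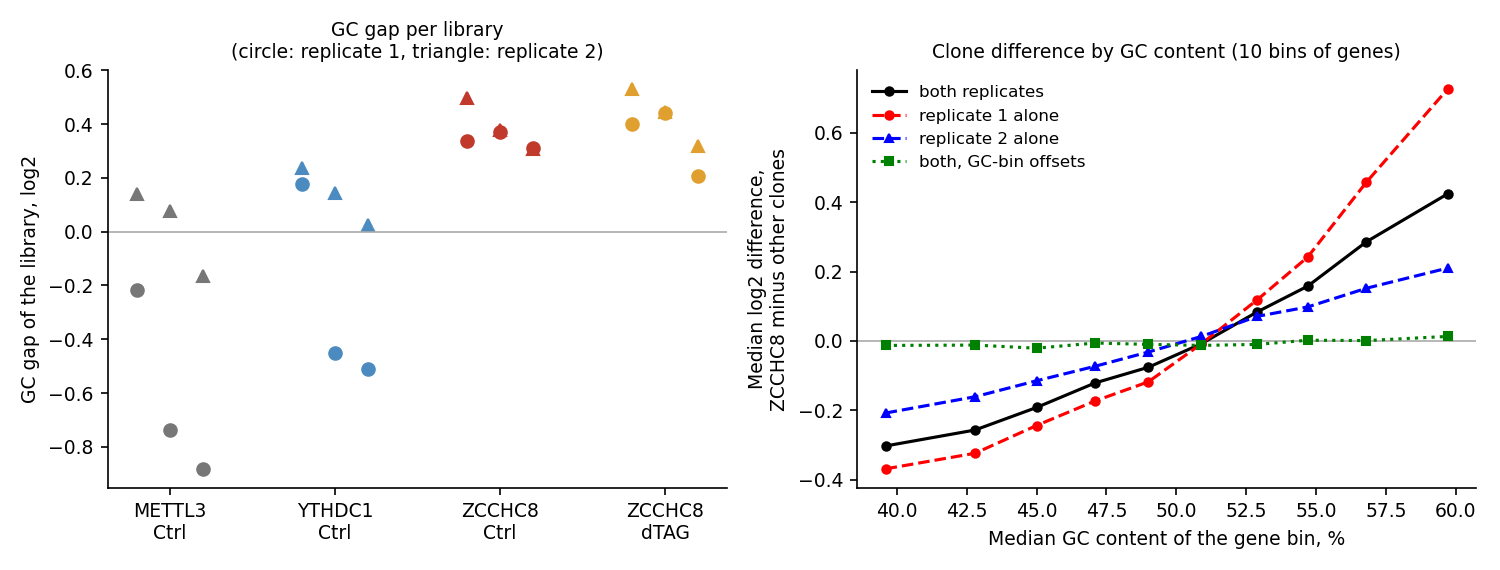
Left, GC gap on the log2 scale of each library of the 3 clones in Ctrl and of ZCCHC8 in dTAG (circle: replicate 1, triangle: replicate 2, left to right 0, 90 and 180 min). Right, median log2 difference of the ZCCHC8 clone from the other clones in 10 bins of genes by GC content (%), in both replicates, in each alone, and with GC-bin offsets. The line for both replicates runs from -0.30 at 39.6% GC to 0.42 at 59.7%, and the line with offsets stays between -0.02 and 0.01.

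To see what remained, the deviation of each GC bin in each library was added to the offsets of the fit, an alternative chosen after the trend was seen. It left 918 genes higher (6.55%) and 981 lower (7.00%) against the mean of the other clones and 483 set apart (3.45%), of which 378 were also set apart with the same sign without it. Zcchc8 was then at -0.96, Clip1 at -1.43 and Xist at 1.01, and the 2-cell-like list gave 14 higher and 0 lower of 16. Ythdc1 went from -0.26 (adjusted p 0.0201) to 0.019. Genes that were set apart over both replicates, in each replicate alone and with GC-bin offsets numbered 266, 116 higher and 150 lower. Of these 260 were protein-coding and 6 lincRNA genes, 10 were among the 366 genes that responded to dTAG-13 in both replicates, and 2 were of the 2-cell-like list.

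Of the genes without overlap between libraries, those with the largest differences are named. Olfr221 (ENSMUSG00000044286, chromosome 14, 52033962 to 52042459, minus strand), an olfactory receptor gene, had 20 to 62 reads in each ZCCHC8 Ctrl library, 0 in all 6 METTL3 libraries and 0 to 2 in the YTHDC1 libraries. In CPM it was at 2.76, 4.97 and 8.05 (lowest, median, highest) in ZCCHC8 Ctrl and at 5.29 to 13 in ZCCHC8 dTAG libraries, so that it was detected in both arms of this clone. AY036118 (ENSMUSG00000105361, chromosome 17) was at 171, 243 and 801 CPM against 1.69, 13.7 and 60.3 in the others (log2 difference 4.36, SE 0.51, edgeR adjusted p 0.000204). It varied widely within the clone, with 5.76 to 297 CPM in the dTAG libraries. It lies opposite Gm42418, an rRNA-like locus, and without a stated use of strand the reads of the pair cannot be told apart.

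Of the other 10 genes among the 12 highest, 5 were higher again in the dTAG arm, where all 6 libraries were above all 6 Ctrl libraries. Atp4b, a subunit gene of the gastric proton pump, was at 6.86, 9.52 and 13.4 CPM in ZCCHC8 Ctrl and 1.32, 4.02 and 6.81 in the others (1.39, SE 0.26, edgeR adjusted p 0.00236), with a dTAG median of 28.5. Nptx1, which encodes a neuronal pentraxin, was at 16.6, 20.8 and 26.3 against 4.87, 9.19 and 13.1 CPM (1.21, SE 0.14, adjusted p 0.000204), with a dTAG median of 35.4. Gm8994 (1.37) reached a dTAG median of 32.5, Usp17lc (1.38) 38.9 and Sp110 34.5 CPM. These dTAG values share the clone with the Ctrl values and are given side by side only.

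The remaining 5 of the 12 were GC-rich genes with a large difference in replicate 1 and a smaller one in replicate 2. Kmt2d, an H3K4 methyltransferase gene with 58.4% GC, was at 94.3, 103 and 178 CPM against 18.3, 51.8 and 90.2 (1.12, SE 0.30, edgeR adjusted p 0.0116), with 2.13 in replicate 1 and 0.43 in replicate 2. Kdm6b, an H3K27 demethylase gene (59.6% GC), differed by 1.36, by 2.49 and 0.65 in the replicates. Atn1, which encodes the corepressor atrophin-1 (62.0% GC), differed by 1.65 (2.63 and 1.02), Bcl9l, a coactivator gene of Wnt signalling (60.1% GC), by 1.30 (2.42 and 0.54), and Zmiz1 (55.4% GC) by 1.26 (2.27 and 0.66). Bcl9l, Zmiz1 and Atn1 overlap another gene. All 5 stayed under an adjusted p of 0.05 with GC-bin offsets, at 0.84 to 1.23.

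Among the 12 lowest, beside Clip1 and Zcchc8, Magohb, which encodes a core protein of the exon junction complex, was at 3.38, 3.83 and 5.45 CPM in ZCCHC8 Ctrl and at 5.74, 9.51 and 14.7 in the others (-1.18, SE 0.13, edgeR adjusted p 0.000199). It was -1.28 in replicate 1 and -1.06 in replicate 2, and 3.77 CPM in the median dTAG library. Cryzl1, a quinone oxidoreductase-like gene, was at 10.3, 11.6 and 16.1 against 16.9, 22 and 37.6 CPM (-0.90, SE 0.14, adjusted p 0.00108). The other 8 were Gas2 (-0.88), Zfp459 (-0.82), Pir (-0.76), Fuca2 (-0.73), Lsm5 (-0.73), Vwa3b (-0.71), Cbr4 (-0.69) and Mrpl33 (-0.66). Gas2 encodes a cytoskeletal protein, Pir the iron-binding nuclear protein pirin, Fuca2 a fucosidase, Lsm5 a subunit of the Lsm ring that binds U6 and mRNA, and Mrpl33 a mitochondrial ribosomal protein. All 12 were below an adjusted p of 0.05 with GC-bin offsets, where these 8 lay between -0.73 and -0.42. No gene was under 0.1 CPM in all ZCCHC8 and at least 5 CPM in all other Ctrl libraries, or the reverse (0 genes each).

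Xist, the RNA followed in the study, was higher in the ZCCHC8 clone before any depletion. It was at 725, 1320 and 1710 CPM (lowest, median, highest) in ZCCHC8 Ctrl, 489, 832 and 1350 in METTL3, 303, 770 and 953 in YTHDC1 and 1500, 2100 and 2800 in ZCCHC8 dTAG libraries. The Ctrl groups overlapped. The log2 difference from the other clones was 0.75 (SE 0.13, edgeR adjusted p 0.00147), or 167.7% of their level (approximate 95% interval 141.3% to 199%), with 0.56 against METTL3 and 0.93 against YTHDC1, both called, and with 1.10 in replicate 1 and 0.42 in replicate 2. Ftx, a noncoding gene of the same X inactivation centre, was lower, with 4.25, 6.17 and 9.14 against 5.65, 10.4 and 15.7 CPM (-0.69, SE 0.12, adjusted p 0.0017). Rlim, an activator of Xist, differed by -0.45 (adjusted p 0.00246) and passed against METTL3 but not YTHDC1. Of the 14 X silencing factors tested 1 was higher and 4 lower (13.8% and 19.2% of all genes were), with a median of -0.12. With GC-bin offsets 1 was higher and 0 lower (6.55% and 7.00% of all genes were), with a median of 0.13. Tsix lies antisense to Xist, and whether strand was used in counting is not given in the sources used here.

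Of 19 genes of cholesterol synthesis, 12 were called lower and 3 higher (19.2% and 13.8% of all genes were), with a median of -0.35 against -0.02 for all genes. With GC-bin offsets 7 were lower and 0 higher, where 7.00% and 6.55% of all genes were. Cyp51, a sterol demethylase gene, was at 44.1, 52.5 and 57.1 CPM (lowest, median, highest) in ZCCHC8 Ctrl and 66.4, 80.8 and 120 in the others, without overlap (-0.71, SE 0.11, edgeR adjusted p 0.00114), and Sqle at 59.0, 65.2 and 69.1 against 73.6, 81.5 and 98.8 (-0.37, adjusted p 0.0016). Of 367 Zfp genes, mostly zinc finger factors with a low GC content, 159 were lower and 26 higher (median -0.25), and 47 lower and 19 higher with GC-bin offsets. Of 9 DNA methylation enzymes 6 were higher and 0 lower, and with GC-bin offsets 2 were higher. Tet2 was among the 6, a 5-methylcytosine dioxygenase gene (0.54, adjusted p 0.00467).

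Of 9 core pluripotency genes 1 was called higher and 0 lower, of 19 naive genes 3 and 1, and of 15 formative and primed genes 1 and 3, beside 13.8% and 19.2% of all genes. Without replicate 1 of METTL3 and YTHDC1 these were 3 and 2, 7 and 0, and 0 and 5. That fit called 4783 genes in all, and its shares of all genes called higher and lower are not given here. With GC-bin offsets the formative and primed genes gave 0 higher and 5 lower, and the naive genes 3 and 0, where 6.55% and 7.00% of all genes were. Otx2, a factor of the formative state, was at 8.40, 11 and 20.0 CPM in ZCCHC8 Ctrl, 16.9, 24.6 and 44.9 in the others and 21 in the median dTAG library (-1.13, SE 0.16, edgeR adjusted p 0.000619). Nodal, a ligand of that state, was higher (0.47, SE 0.09, adjusted p 0.00223) and its antagonist and target Lefty1 lower (-0.50, SE 0.11, adjusted p 0.00428). Plagl1, an imprinted zinc finger gene, was at 16.5, 22.2 and 30.8 against 4.65, 9.07 and 19.1 CPM (1.22, SE 0.23, adjusted p 0.00266).

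The labelled cell type was checked by its markers. The 10 mES cell genes summed to 2800 to 3440 CPM in ZCCHC8, 2500 to 3530 in METTL3 and 2850 to 3840 in YTHDC1 libraries. Of these genes 1 was called higher and 0 lower. Without replicate 1 of METTL3 and YTHDC1, in a fit that called 4783 genes in all, 6 were higher and 1 lower. Of 10 primitive endoderm genes tested 5 were higher (13.8% of all genes were) and 0 lower, with sums of 709 to 998 CPM against 435 to 753 and 575 to 866. Among them Col4a1, a basement membrane collagen gene, was at 146, 220 and 250 against 60.4, 100 and 149 CPM (0.99, SE 0.19, edgeR adjusted p 0.00283), and Dab2, an endocytic adaptor gene, at 10.4, 14.9 and 23.6 against 4.04, 8.49 and 17.6 (0.88, SE 0.18, adjusted p 0.00328). With GC-bin offsets 3 were higher, where 6.55% of all genes were. Of 9 fibroblast (feeder) genes tested 5 were higher and 0 lower, and 4 and 0 with GC-bin offsets, with sums of 613 to 993 CPM against 314 to 814 and 374 to 852. Col1a1, a defining fibroblast gene, was at 5.76 to 7.84 CPM against 1.03 to 5.47. Neural genes gave 2 higher of 4 tested, mesoderm 1 of 3 with Msgn1 at 0, and trophectoderm 0 of 8, with none lower in any of these. The part that other cells had in the differences between clones was not tested.

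A gained or lost chromosome would move all its genes together, by 0.58 on the log2 scale for 3 copies in place of 2 and by -1 for 1 copy. The shift of each chromosome was taken as the difference between clones in the median deviation of its genes from that of the other autosomes. Over 19 autosomes it ranged from -0.111 to 0.108. It was past an adjusted p of 0.05 in 7 (exact permutation test over libraries, 6 against 12, two-sided), with chromosomes 7, 8 and 11 up and 3, 13, 14 and 16 down. The shift ranked with the median GC content of the chromosome's genes (Spearman 0.946 over 19 autosomes, which share the libraries, given as a description) and lay between -0.047 and 0.026 with GC-bin offsets. The X chromosome without Xist was at -0.128 (exact permutation p 0.0428), with -0.218 to 0.071 in ZCCHC8 and -0.183 to 0.223 in the other libraries, which overlapped, and at -0.01 with GC-bin offsets. Within chromosomes, 455 windows of 30 neighbouring genes had medians between -0.398 and 0.635. Of these, 1 window reached 0.4 against both clones. Its medians were 0.635 against METTL3 and 0.639 against YTHDC1, with 18 of its 30 genes called higher and 2 lower. Of all genes 13.8% were called higher and 19.2% lower. The windows on either side had medians of 0.164 and -0.148 against the mean of the other clones. This window overlaps the one before it in position. Genes in a window can overlap as well, so that its 30 genes are not all separate readings. Whether its median reflects a change in copy number was not tested. Copy number was not measured.

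**Figure D5:**
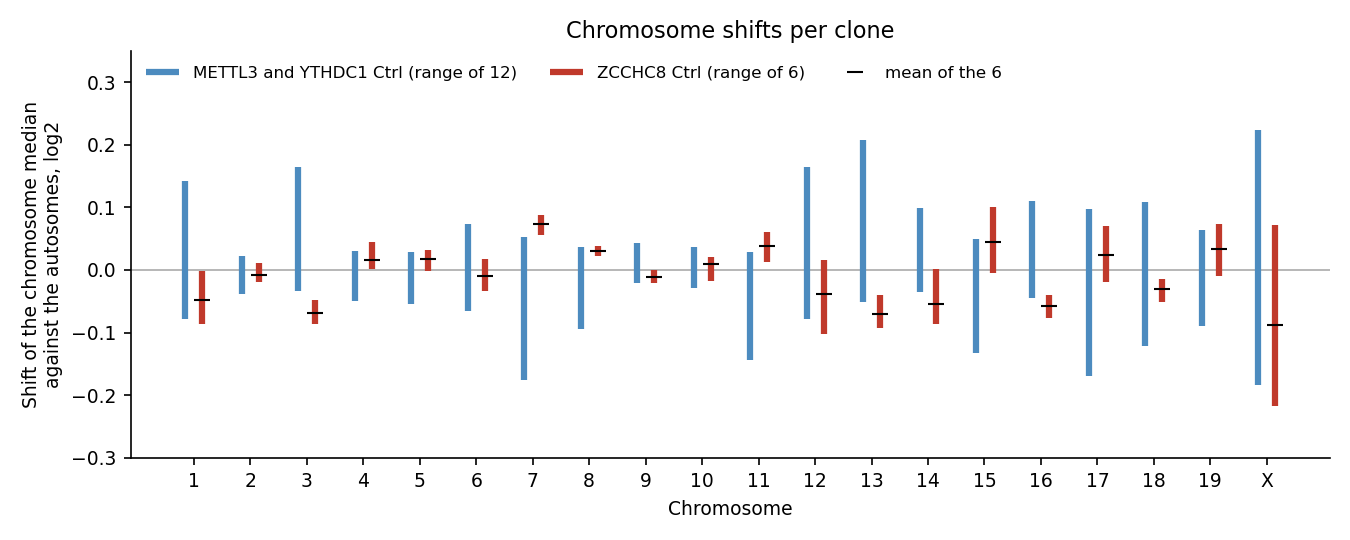
Shift of the median of each chromosome against the autosomes on the log2 scale, as the range of 6 ZCCHC8 Ctrl (with a tick at their mean) and of 12 METTL3 and YTHDC1 Ctrl libraries. The ranges are apart on chromosomes 3 and 7 and overlap on all others, the difference of means lies between -0.111 and 0.108 on the autosomes, and no chromosome as a whole reaches the step of 0.58 of an added copy.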

How the data were processed

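Total RNA was sequenced after 4sU labelling and iodoacetamide treatment (stranded library kit). Per the paper's methods, the authors discarded reads aligning to rRNA, aligned the rest to mm10 with STAR 2.5.2b, keeping unique alignments, and ran GRAND-SLAM. The tables are 1 per line and replicate. Use of strand in counting is not given in the sources used here. The deposited read counts are raw whole numbers per gene. The deposited new-to-total ratio (a fraction) is GRAND-SLAM's share of new RNA. The 6 tables held 20070 to 20640 genes, 22979 in any and 18419 in all, and 384 columns of single libraries were not used.

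Counts of the 18 Ctrl libraries were filtered (filterByExpr), TMM-scaled and fitted with clone and chase time as factors by the robust quasi-likelihood F test of edgeR 4.0.16. P-values were adjusted (Benjamini-Hochberg) over 14005 genes, threshold 0.05. The SE is the log2 difference divided by the square root of F. CPM were computed with TMM factors over these and the 6 ZCCHC8 dTAG libraries. GC content is that of GENCODE M21 transcripts, known for 13991 genes, in 20 bins for the offsets. The tests were checked on simulated counts. Alternatives were no or other scaling (DESeq2 1.42.0), filters, thinning, summing, leaving out libraries and GC-bin offsets.

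The comparison and the gene lists were chosen with earlier results of these data known. Genes were named by this rule: the tagged genes, Xist and NEXT; the 12 highest and lowest set apart genes by the smaller pairwise difference, at a mean of at least 5 CPM in the higher group and without overlap; genes on in 1 side alone; the 8 strongest responders; and up to 4 members per list with the smallest p. Neighbours of Zcchc8 and further members of the 2-cell-like list were named after their values were seen.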

Additional observations from a re-analysis of the deposited data

Results flagged for a closer look

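Of 38 values examined for a library far from the rest of the 6 ZCCHC8 Ctrl libraries, 4 had one, where chance gives about 1 in 20. AY036118 was at 801 CPM at 0 min of replicate 1, where the next library was at 287 and the lowest at 171. Atn1 was at 19.1 CPM in the same library, with the next at 11.4 and the lowest at 8.34. Kmt2d was at 178 CPM there too, with the next at 117 and the lowest at 94.3. This library was also the least deep of the 6, with 5589652 reads. Zmiz1 was at 12.9 CPM at 90 min of replicate 2, below the next library at 15.1 and the highest at 16.2. For each of these genes all 6 libraries lay above the 12 others, which the rule for naming them required.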

How the results depend on the processing

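The numbers of differing genes were the least stable results. Genes called against the mean of the other clones numbered 4623, 1899 with GC-bin offsets, 0 with the chase libraries summed, 2795 to 5769 without a single library and up to 6864 without replicate 2. Genes set apart numbered 1407, 620 after thinning to the smallest library, 0 summed, 3098 without replicate 1, 4574 without replicate 2, 2210 without replicate 1 of METTL3 and YTHDC1, 483 with GC-bin offsets and 413 to 1953 without a single library. Pairwise calls moved for ZCCHC8 against METTL3 with GC-bin offsets (1226), and without replicate 1 of METTL3 and YTHDC1 for ZCCHC8 against YTHDC1 (3424) and METTL3 against YTHDC1 (586). Treating the other 12 libraries as 1 group gives no pairwise contrast, so no set apart count was run there.

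Replicate numbers paired METTL3 with YTHDC1 libraries, whose deviations from the clone means correlated at 0.557 to 0.908 over 10825 genes, but not ZCCHC8 with either (-0.068 to 0.213), so the block was left out of the fit reported. With the replicate block 6932 genes were called and 3993 set apart, and the pairwise calls were 6679 for ZCCHC8 against METTL3, 5247 for ZCCHC8 against YTHDC1 and 865 for METTL3 against YTHDC1. These pairwise counts were added after seeing the data.

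Zcchc8 was -1.05 summed (adjusted p 0.403) and -1.08 to -1.0 without a single library. Xist was 0.72 summed (adjusted p 0.403) and 0.66 to 0.80. The lincRNA median was -0.17 without a filter, -0.021 without replicate 1, -0.087 without replicate 2 and 0.020 with GC-bin offsets. The X-linked shift was -0.13 over means of the chase libraries (exact permutation p 0.2, smallest possible 0.0667), -0.09 without replicate 1 (0.286), -0.17 without replicate 2 (0.0714, smallest possible 0.0119) and -0.075 without replicate 1 of METTL3 and YTHDC1 (0.262). Chromosomes past the threshold numbered 11 at 5 CPM or more and 0 without replicate 1, beside 7 without replicate 1 of METTL3 and YTHDC1 alone. Over chase means none could pass, since the smallest possible p of the exact permutation test was 0.0667. The median baseline of the responsive genes stayed within the spread of the replicates in every alternative run. Of 166 single genes, 9 turned: Ascl2 (-0.31 without replicate 1, 0.64 without replicate 2) and Pabpn1 (-0.18 and 0.37), and with GC-bin offsets Rbm15b (-0.030), Rps15 (-0.021), Slc38a4 (0.02), Spred1 (0.057), Ube3a (0.054), Ythdc1 (0.019) and Ythdc2 (0.0019). The cause of these changes was not tested. Depth of 5589652 to 8515417 reads limits genes near 1 CPM to a few reads per ZCCHC8 library.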

Other observations

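Groups that the text above does not describe gave these values against the mean of the other clones, as genes called higher and lower by edgeR of those tested, where 13.8% of all genes were called higher and 19.2% lower. With GC-bin offsets 6.55% of all genes were called higher and 7.00% lower. Replication-dependent histone genes had 18 higher and 1 lower of 62 (median log2 difference 0.38), and 6 higher and 4 lower with GC-bin offsets. Hist1h1t, a testis H1 gene, was at 5.03, 7.93 and 12.6 CPM (lowest, median, highest) in ZCCHC8 Ctrl and 3.83, 5.03 and 9.23 in the other Ctrl libraries (0.53, SE 0.09, adjusted p 0.00166). Ribosomal protein genes had 13 higher and 1 lower of 83. Without replicate 1 of METTL3 and YTHDC1, in a fit that called 4783 genes in all, they had 77 higher and 0 lower. Their median was -0.21 in replicate 1 and 0.28 in replicate 2, so that the direction turned between the replicates.

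Genes of hypoxia and glycolysis had 1 higher and 7 lower of 20, among them Bnip3, a mitophagy receptor gene (-0.93, SE 0.15, adjusted p 0.00123). Germline genes had 0 higher and 6 lower of 23, with a median of -0.44 against METTL3 and 0.01 against YTHDC1. Polycomb genes had 3 higher and 7 lower of 18, and 1 and 2 with GC-bin offsets. Genes of H3K9 silencing had 3 higher and 7 lower of 15, and 0 and 0 with GC-bin offsets. Of signalling groups, Nodal and BMP had 1 higher and 3 lower of 13, FGF and ERK feedback 1 and 2 of 15, Wnt targets 3 and 0 of 8 and immediate early genes 2 and 1 of 10. Of stress groups, the integrated stress response had 5 higher and 3 lower of 18, interferon genes 1 and 3 of 9 and p53 targets 4 and 3 of 18.

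Of RNA groups, TRAMP, cap binding and early termination genes had 1 higher and 3 lower of 12, the m6A writer complex 1 and 0 of 8, m6A readers and erasers 1 and 2 of 7, snoRNA host noncoding genes 0 and 3 of 8, nuclear long noncoding RNA genes 1 and 2 of 7, and RIKEN-named genes 27 and 67 of 348. Imprinted genes had 4 higher and 4 lower of 30. The lincRNA AC210924.1 was at 3.38, 4.28 and 6.13 CPM in ZCCHC8 Ctrl, 0.933, 1.86 and 3.27 in the other Ctrl and 14.2 to 16.9 in ZCCHC8 dTAG libraries, without overlap between any of the 3 (baseline log2 difference 1.2, SE 0.15, adjusted p 0.000273, 1.14 in replicate 1 and 1.29 in replicate 2). Dancr, a snoRNA host gene, was at 18.2, 24.8 and 30.2 CPM in ZCCHC8 Ctrl, 17.0, 37.4 and 72.1 in the others and 81.0 to 99.5 in dTAG libraries (baseline -0.67, SE 0.23, adjusted p 0.0329). No mitochondrially encoded gene was in the tables (0 genes).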
